A study of Homo sapiens with 6 samples.

Results

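The miR-181 family was followed in small RNA libraries of HEK293T cells, which derive from human embryonic kidney, after knock-down (KD) of the ribosomal protein gene RPL24. Its 7 members were chosen by name among the 2588 mature miRs of the count table, namely the guide arms hsa-miR-181a-5p, hsa-miR-181b-5p, hsa-miR-181c-5p and hsa-miR-181d-5p and the passenger arms hsa-miR-181a-3p, hsa-miR-181a-2-3p and hsa-miR-181c-3p. 3 libraries came from cells given siPOOLs (mixtures of many siRNAs) against RPL24 and 3 from cells given non-targeting siPOOLs (NC), both at 50 nM and harvested 72 h later. Both groups are of 1 cell line, the labels do not say whether the 3 samples of a group were separate cultures, and p-values therefore measure the spread between these samples, which may be technical. According to the treatment protocol both groups were also given a plasmid with miR-608 before harvest, whereas the study speaks of the sequenced cells as a separate knock-down experiment, and whether they received the plasmid is unclear.

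A miRNA gene is transcribed as a long primary transcript, from which Drosha cuts a hairpin that Dicer then trims to a duplex of a 5p and a 3p arm. One strand of the duplex, the guide, is usually kept by an Argonaute protein and pairs with target mRNAs through its seed, bases 2 to 8, whereas the passenger strand is mostly degraded. The miR-181 guides are best known from developing lymphocytes, where miR-181a tunes T cell receptor signalling, and they are also found in brain and other tissues. In vertebrates they are made from several duplicated loci.

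The 7 mature sequences are shown because members with near-identical sequences had different fold changes here. They were taken from RefSeq (GRCh38.p14), which held all 7, and are written 5′ to 3′ with the seed in capitals. The 4 guides share the seed ACAUUCA, whereas each passenger arm has a seed of its own.
miR-181a-5p: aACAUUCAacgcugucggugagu
miR-181b-5p: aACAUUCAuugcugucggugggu
miR-181c-5p: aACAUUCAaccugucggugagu
miR-181d-5p: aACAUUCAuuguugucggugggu
miR-181a-3p: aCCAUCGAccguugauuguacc
miR-181a-2-3p: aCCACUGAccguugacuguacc
miR-181c-3p: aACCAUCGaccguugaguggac

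Counted from 1 at the 5′ end, miR-181b-5p differs from miR-181a-5p at A9U, C10U and A21G, and miR-181d-5p differs from miR-181b-5p at C12U alone. MiR-181c-5p is 22 nt long against 23 nt for miR-181a-5p, at an edit distance of 1. Among the passenger arms, miR-181a-2-3p differs from miR-181a-3p at U5C, C6U and U16C. MiR-181c-3p has 1 more base at its 5′ end and, aligned from its base 2, differs from miR-181a-3p at U16G and U19G, so that the shifted end gives it a different seed. How reads that fit several miRs were assigned is not given in the sources used here, and the counts of these near-identical members are uncertain to that extent. One other miR with a RefSeq sequence has a member's seed, miR-4262, which shares that of the guides and had 0 counts in each of the 6 libraries.

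The family lies in 3 pairs of hairpin genes. In the GENCODE 29 annotation of GRCh38, MIR181A1 (198859044 to 198859153) and MIR181B1 (198858873 to 198858982) lie on the minus strand of chromosome 1, 62 nt apart, in an intron of the long non-coding RNA MIR181A1HG. MIR181A2 (124692442 to 124692551) and MIR181B2 (124693710 to 124693798) lie on the plus strand of chromosome 9, 1159 nt apart, in an intron of the host transcript MIR181A2HG and, on the opposite strand, in introns of 4 transcripts of NR6A1. MIR181C (13874699 to 13874808) and MIR181D (13874875 to 13875011) lie on the plus strand of chromosome 19, 67 nt apart, in introns of 2 transcripts of NANOS3. MiR-181a-5p and miR-181b-5p are identical from chromosomes 1 and 9, so their counts pool both loci, while miR-181a-3p reports on chromosome 1 alone, miR-181a-2-3p on chromosome 9 alone, and miR-181c-5p, miR-181c-3p and miR-181d-5p on chromosome 19 alone. The hairpins of the pair of passenger arms that passed the test are given here from RefSeq in full, with both mature arms in capitals.
MIR181A2: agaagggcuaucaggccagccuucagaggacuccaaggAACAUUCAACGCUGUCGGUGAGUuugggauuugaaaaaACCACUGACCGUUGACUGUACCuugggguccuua
MIR181C: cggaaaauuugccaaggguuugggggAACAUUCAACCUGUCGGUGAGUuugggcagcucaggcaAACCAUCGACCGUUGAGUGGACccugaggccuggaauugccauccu

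Total counts lay between 398721 and 611745 per library. Levels are given as CPM, counts scaled to the normalized total of the tested miRs, and 3 counts, taken as the floor of detection, are 4.90 to 7.52 CPM of the unnormalized total. Floors and intervals cover counting error only, since reads without molecular identifiers are not independent molecules. Libraries of one group differed by more than counting noise (chi-square per degree of freedom 2.18 to 2.50 among RPL24 KD libraries and 9.72 to 17.4 among NC libraries), so none was a copy of another. RPL24 mRNA is not measured by small RNA libraries, so its depletion could not be checked here. The study reported RT-qPCR and immunoblots of RPL24 after knock-down in HEK293T cells, without saying whether these were the sequenced cultures. Among 13 miRs typical of liver, muscle, blood, endothelium or neurons, 11 had at most 8 counts in any library and 4 had 0 counts in every library, whereas the endothelial miR-126-3p and the muscle miR-1-3p were present. The summed level of the 13 was 1757 to 1810 CPM after RPL24 KD against 2099 to 2617 CPM in NC (251 to 278 against 337 to 395 CPM without miR-126-3p), and the part of this shift in the results was not tested. The 6 blood miRs did not exceed 4 counts. The third library of each group, whose number in the table is not in the labels, is called unnumbered below.

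After RPL24 KD 2 members of the family passed the test, in opposite directions and not in every setting. The passenger arm miR-181a-2-3p rose 1.47-fold. MiR-181c-3p, a passenger by name but the more abundant arm of its hairpin here, fell by 1.18 on the log2 scale. None of the 3 guide arms tested passed (2 of the 3 had an unadjusted p under 0.05 in edgeR). Of the 7 members, 6 passed the filter on low counts, miR-181c-3p through its level in NC. They entered edgeR's quasi-likelihood test over 360 miRs with Benjamini-Hochberg adjustment. Of the 6, 2 were called at an adjusted p under 0.05, 1 higher and 1 lower. Over all 360 miRs the share called was 5.00%, with 3.33% higher and 1.67% lower. The normalized counts of the 6 members did not overlap between the groups, which was also the case for 27.5% of all tested miRs. The median log2 fold change was 0.19 over the 6 members and -0.01 over all tested miRs, and the median absolute log2 fold change 0.33 and 0.16. Because the members were chosen with these values known, the counts describe the family and do not test it.

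**Figure D1:**
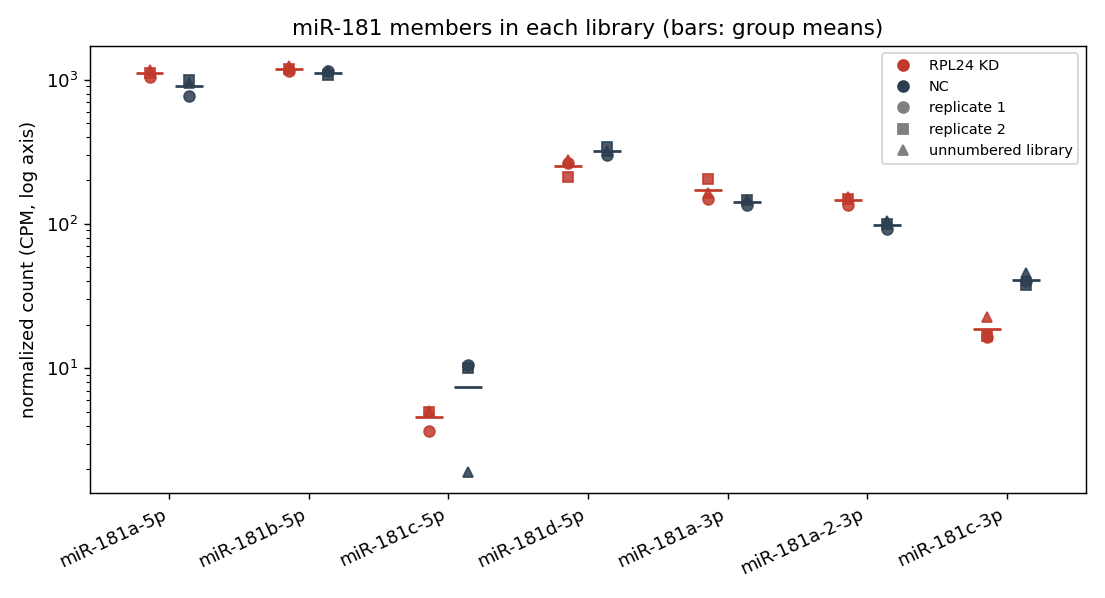
Normalized counts in CPM (log axis) of the 7 members in each of the 3 RPL24 KD (red) and 3 NC (dark) libraries; the bars are group means and the marker shape gives the replicate. The groups are apart for miR-181a-2-3p (means 146 and 99.0 CPM) and miR-181c-3p (18.5 and 41.1 CPM), and they overlap for miR-181c-5p.

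Among the guides, miR-181b-5p and miR-181a-5p were the most abundant members, at numbers 72 and 77 of all miRs by total counts. MiR-181a-5p, the guide of MIR181A1 and MIR181A2, had 1046, 1111 and 1160 CPM in RPL24 KD replicate 1, replicate 2 and the unnumbered library, and 770, 990 and 946 CPM in the corresponding NC libraries. All 3 RPL24 KD libraries lay above all 3 NC libraries, of which replicate 1 was the lowest. Its log2 fold change was 0.30 (standard error 0.0995), and the adjusted p of 0.0912 from edgeR missed the threshold. The call depended on the setting and on the libraries. With all 6 libraries it passed under robust edgeR (adjusted p = 0.0333) and without a filter (adjusted p = 0.0411, edgeR), while DESeq2 with default filtering gave 0.32 (adjusted p = 0.0605). Without NC replicate 2 the log2 fold change was 0.37 (adjusted p = 0.0409, edgeR) and without the unnumbered NC library 0.34 (adjusted p = 0.0268, edgeR). Without NC replicate 1, the lowest, it fell to 0.19 (adjusted p = 0.302, edgeR). Nor did it pass when any RPL24 KD library was left out (adjusted p from 0.188 to 0.245, edgeR).

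MiR-181b-5p, the guide made beside it at both loci, had 1154, 1180 and 1238 CPM in the RPL24 KD libraries, in the same order, and 1142, 1072 and 1139 CPM in the NC libraries. The groups were next to each other, with the lowest RPL24 KD library 1154 CPM and the highest NC library 1142 CPM. The log2 fold change was 0.09 with a standard error of 0.0780 (adjusted p = 0.569, edgeR), within the spread between replicates.

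MiR-181d-5p, the guide of the chromosome 19 pair, went the other way. It had 265, 211 and 278 CPM in the RPL24 KD libraries and 303, 340 and 318 CPM in the NC libraries, so that every RPL24 KD library was below every NC library. The log2 fold change was -0.36 (standard error 0.126), with an adjusted p of 0.113 in edgeR. Without RPL24 KD replicate 2, the lowest library, it was -0.24 (adjusted p = 0.422, edgeR). MiR-181d-5p passed the threshold in 1 setting, the replicate block, described in the closing section.

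MiR-181c-5p, the guide of the neighbouring hairpin, was close to the limit of detection, with 2, 3 and 2 counts in the RPL24 KD libraries and 6, 4 and 1 counts in the NC libraries. The groups overlapped, and it did not pass the filter. Summed over the libraries it had 7 counts in RPL24 KD (exact Poisson 95% interval from 2.81 to 14.4) and 11 in NC (from 5.49 to 19.7), so a difference was not detectable at this depth. The order of the guides by CPM in RPL24 KD was miR-181b-5p, miR-181a-5p, miR-181d-5p and miR-181c-5p, and it was the same in NC. Only miR-181b-5p and miR-181a-5p were neighbours within their spread in RPL24 KD, where their ranges overlapped, while in NC the lowest miR-181b-5p library (1072 CPM) was above the highest miR-181a-5p library (990 CPM).

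The passenger arm of chromosome 9, miR-181a-2-3p, was the member that rose. It had 135, 150 and 153 CPM in the RPL24 KD libraries and 92.7, 99.99 and 104 CPM in the NC libraries, from 74, 90 and 61 and from 53, 40 and 55 counts. The lowest RPL24 KD library was above the highest NC library. The level was 146 ± 9.34 CPM (SD, n = 3) after RPL24 KD and 99.0 ± 5.85 CPM (SD, n = 3) in NC, and edgeR estimated the log2 difference at 0.56 with a standard error of 0.148 (adjusted p = 0.0434). It was number 17 of 360 by p-value. The direction held in each of the alternatives, but the call did not, with adjusted p-values from 0.0256 to 0.167. In edgeR the call was lost without RPL24 KD replicate 1 (adjusted p = 0.0809), RPL24 KD replicate 2 (0.147) or the unnumbered RPL24 KD library (0.0963). The same happened without NC replicate 1 (0.122) or NC replicate 2 (0.0598). Of the 6 fits without a library, 1 kept the call, that without the unnumbered NC library (adjusted p = 0.0403, edgeR).

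The passenger arm of chromosome 1, miR-181a-3p, comes from a hairpin with the same guide. It had 150, 205 and 163 CPM in the RPL24 KD libraries and 135, 147 and 146 CPM in the NC libraries. RPL24 KD replicate 2 was far above the rest, and RPL24 KD replicate 1 was 150 CPM against 147 CPM in the highest NC library. The log2 fold change was 0.29 with a standard error of 0.152 (adjusted p = 0.282, edgeR), and without RPL24 KD replicate 2 it was 0.13 (adjusted p = 0.759, edgeR).

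MiR-181c-3p, by name the passenger arm of MIR181C, fell. It had 16.5, 16.6 and 22.5 CPM in the RPL24 KD libraries and 40.2, 37.5 and 45.5 CPM in the NC libraries, from 9, 10 and 9 and from 23, 15 and 24 counts. All 3 NC libraries were above all 3 RPL24 KD libraries. The filter scales its minimum count of 10 to library size. It let miR-181c-3p in through NC, with 15 to 24 counts per library against 9 or 10 in RPL24 KD. Its place among the tested miRs therefore rests on the group where it was higher. The level was 18.5 ± 3.46 CPM (SD, n = 3) after RPL24 KD and 41.1 ± 4.07 CPM (SD, n = 3) in NC, and edgeR estimated the log2 difference at -1.18 with a standard error of 0.295 (adjusted p = 0.0339), the second lowest among the 360 tested miRs. The summed counts were 28 in RPL24 KD (exact Poisson 95% interval from 18.6 to 40.5) and 62 in NC (from 47.5 to 79.5). Adjusted p-values over the alternatives ran from 0.0199 to 0.142, and the call was lost without RPL24 KD replicate 1 (0.118), RPL24 KD replicate 2 (0.126), NC replicate 1 (0.0556) or the unnumbered NC library (0.0671), all in edgeR.

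With DESeq2 neither passenger arm was called when it was run on the same miRs, with adjusted p-values of 0.145 for miR-181a-2-3p and 0.142 for miR-181c-3p and log2 fold changes of 0.56 and -1.17. DESeq2's default filtering gave miR-181c-3p no adjusted p.

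**Figure D2:**
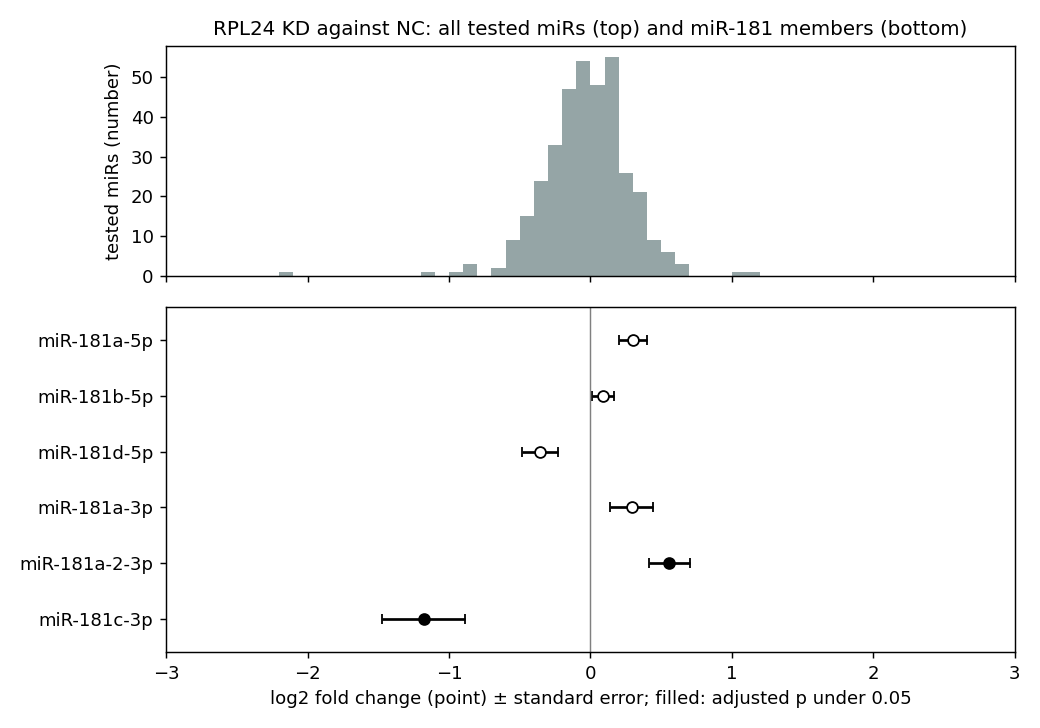
Log2 fold change between RPL24 KD and NC (positive is higher after RPL24 KD), as a histogram over the 360 tested miRs (top, number of miRs) and as points with standard errors for the 6 tested members (bottom; filled points passed an adjusted p under 0.05). MiR-181c-3p (-1.18) lies at the lower edge of all tested miRs, and miR-181a-2-3p (0.56) is the highest of the members.

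By chromosome, 1 of the 4 members from chromosome 1 or 9 was called higher (miR-181a-2-3p), and 1 of the 2 tested members from chromosome 19 was called lower (miR-181c-3p). Over all tested miRs 3.33% were called higher and 1.67% lower. With 1 call on each side, a difference between the chromosomes was not tested. The fold changes of the tested members that were not called were 0.30, 0.09 and 0.29 for miR-181a-5p, miR-181b-5p and miR-181a-3p and -0.36 for miR-181d-5p, and no direction is given to miR-181c-5p. Of the miR-181 arms in the table that are no members, miR-181b-3p (chromosome 1) had 22 counts in RPL24 KD and 22 in NC, miR-181b-2-3p (chromosome 9) had 2 and 3, and miR-181d-3p (chromosome 19) had 1 and 0, too few to read a direction from.

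To compare members without any scaling between libraries, the log2 ratio of counts of 2 members was taken within each library for 12 pairs (pseudocount 0.5). The pairs share members and are not independent, and an exact permutation test of 3 libraries against 3 cannot give a two-sided p below 0.1. In 6 of the 12 pairs the groups did not overlap (exact p = 0.1, adjusted p = 0.2 over the 12), a separation that 22.8% of all pairs of tested miRs showed as well. Pairs with miR-181c-5p, which did not pass the filter, have no counterpart in that share, and none of them separated.

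All 3 pairs of passenger arms separated. The pairs with miR-181c-3p rest on its 9, 10 and 9 counts in the RPL24 KD libraries, and it passed the filter through NC. They use the same values as its call and are no further evidence of its fall. MiR-181a-2-3p was 7.84, 8.62 and 6.47 times as abundant as miR-181c-3p in the RPL24 KD libraries and 2.28, 2.61 and 2.27 times in the NC libraries, a change of the ratio by 3.19-fold. The ratio of miR-181a-3p to miR-181c-3p rose 2.60-fold, from 3.30, 3.84 and 3.16 in NC to 8.68, 11.8 and 6.89. That of miR-181a-2-3p to miR-181a-3p, whose sequences differ at 3 bases, changed by 1.23-fold, with RPL24 KD replicate 2 (0.733) close to the highest NC library (0.716).

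Among the 6 pairs of guides, 2 separated, both against miR-181d-5p. MiR-181b-5p was 4.34, 5.56 and 4.43 times as abundant as miR-181d-5p, from which it differs by 1 base, in the RPL24 KD libraries and 3.77, 3.15 and 3.57 times in NC, a change by 1.36-fold. For miR-181a-5p over miR-181d-5p the change was 1.58-fold, from 2.54, 2.90 and 2.96 in NC to 3.93, 5.24 and 4.16. The ratio of miR-181a-5p to miR-181b-5p, which come from the same loci, changed by 1.16-fold and the groups overlapped (exact permutation p = 0.2, adjusted p = 0.343). The 3 pairs with miR-181c-5p overlapped too, with as few as 1 count in a library.

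**Figure D3:**
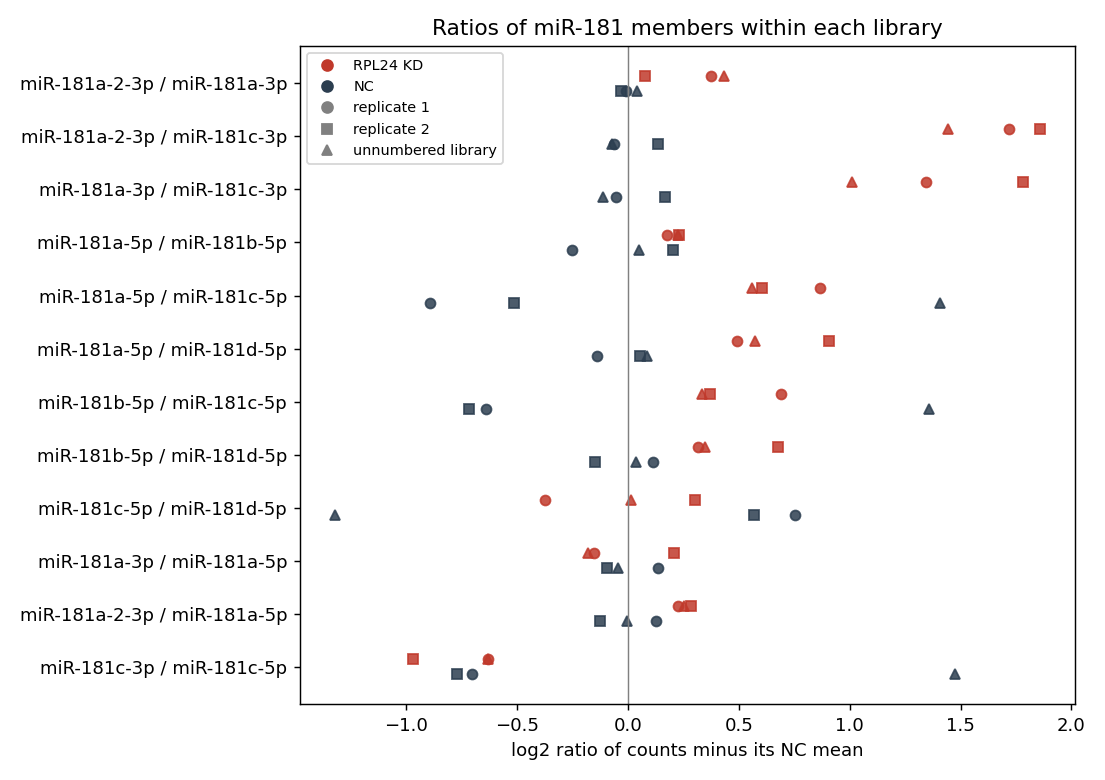
Log2 ratio of counts for each of the 12 pairs of members within each library, less the mean of the NC libraries for that pair (horizontal axis, log2 units), with RPL24 KD in red and NC in dark. The pairs of miR-181c-3p with the other passenger arms are shifted most (differences of 1.67 and 1.38), and the pairs with miR-181c-5p scatter widely.

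The ratio of each passenger arm to its own guide asks whether the arms of a hairpin moved alike. The ratio of miR-181a-3p to miR-181a-5p did not separate (difference -0.04 on the log2 scale, SD 0.216 in RPL24 KD and 0.121 in NC, n = 3 each, exact permutation p = 0.7, adjusted p = 0.764). MiR-181a-2-3p had 0.130, 0.135 and 0.133 reads per read of miR-181a-5p in the RPL24 KD libraries and 0.121, 0.102 and 0.111 in NC, which did not overlap, a change by 1.19-fold (exact permutation p = 0.1, adjusted p = 0.2). Because miR-181a-5p pools 2 hairpins, neither is a ratio within 1 hairpin. The ratio of miR-181c-3p to miR-181c-5p was 3.8, 3 and 3.8 in the RPL24 KD libraries and 3.62, 3.44 and 16.3 in NC, where the unnumbered library had 24 counts against 1. Its difference was -0.74 on the log2 scale (exact permutation p = 0.6, adjusted p = 0.72), and -0.0069 without that library. Over the 74 hairpin names with both arms tested, 8.11% had ratios that did not overlap between the groups, and the median absolute difference was 0.14.

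In MIR181C the 3p arm, the passenger by name, had more counts than the 5p arm in each of the 6 libraries. Over the summed libraries it made up 80.0% of the 35 counts of both arms in RPL24 KD (exact Clopper-Pearson 95% interval from 63.1 to 91.6) and 84.9% of the 73 counts in NC (from 74.6 to 92.2), and the intervals overlapped. In MIR181D the 3p arm had 1 of 384 counts in RPL24 KD and 0 of 477 counts in NC.

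Read as a whole, the 4 guides made up 0.242% to 0.263% of the counts of each RPL24 KD library and 0.225% to 0.247% of each NC library, and these ranges overlapped. The 3 passenger arms made up 0.0295% to 0.0365% and 0.0271% to 0.0304%, which overlapped as well. Guides outnumbered passengers 6.76 to 8.18 times after RPL24 KD and 8.13 to 8.46 times in NC.

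MIR23A, MIR27A and MIR24-2, an independent cluster on the opposite strand, are the only other annotated miRNA hairpin genes within 100 kb of a miR-181 hairpin, between 38.0 and 38.5 kb from MIR181C and MIR181D. Of their 4 tested arms, 2 had negative and 2 had positive log2 fold changes, and a difference from the chromosome 19 members was not tested. The log2 fold changes were -0.09 for miR-23a-3p (adjusted p = 0.777, edgeR), 0.17 for miR-27a-3p (adjusted p = 0.374, edgeR), 0.32 for miR-27a-5p (adjusted p = 0.409, edgeR) and -0.15 for miR-24-3p (adjusted p = 0.331, edgeR), and 0 of the 4 were called. MiR-24-3p is also made at another locus. With 0 counts for miR-23a-5p and 45 counts in all for miR-24-2-5p, the other arms of this cluster were not tested.

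The tested miRs most like a member were those with the smallest root mean square difference of centred log2 CPM over the 6 libraries. For miR-181a-5p they were miR-212-5p (0.0709), miR-7-5p (0.0774) and miR-1269b (0.0998), against a median of 0.267 over the other tested miRs. For miR-181a-2-3p they were miR-641 (0.0979), miR-34a-5p (0.101) and miR-25-5p (0.114), against 0.343. For miR-181c-3p the nearest were less close, namely miR-92b-5p (0.244), miR-210-3p (0.328) and miR-574-5p (0.340), against 0.604.

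**Figure D4:**
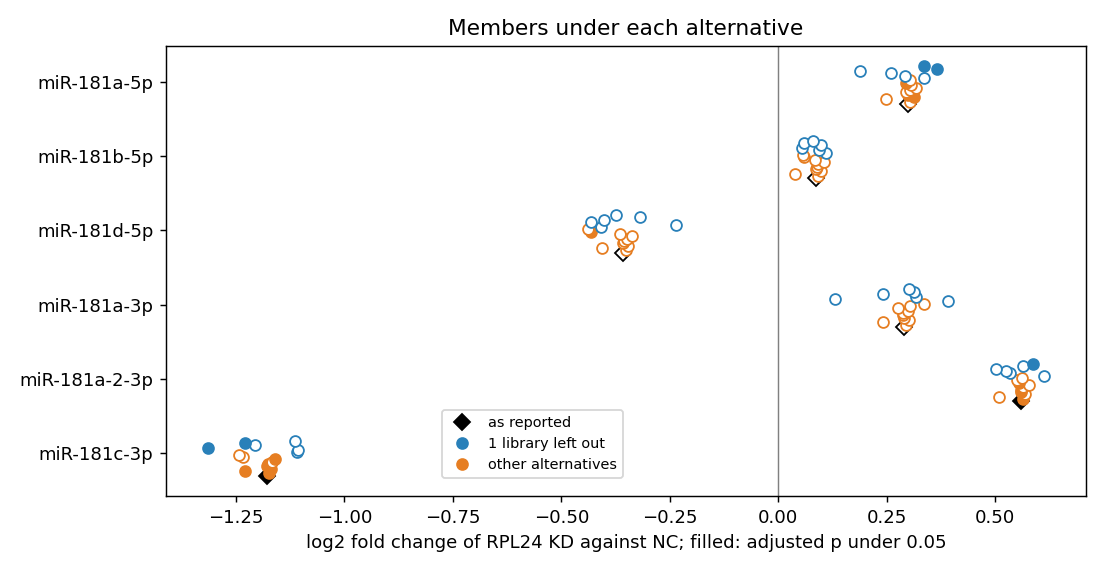
Log2 fold change of the 6 tested members (horizontal axis) as reported (black diamonds), with 1 library left out (blue) and under the other alternatives (orange); filled symbols passed an adjusted p under 0.05. No member crossed 0, whereas the calls of miR-181a-2-3p and miR-181c-3p came and went.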

How the data were processed

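Small RNA libraries of 3 RPL24 KD and 3 NC samples were used. After quality control in FastQC and trimming in Flexbar, the authors matched reads to miRBase with miRExpress and deposited raw read counts per mature miR and library; their own test was DESeq2. Samples were grouped by their labels, and the third column of each group, whose number matches no label, entered its group without a number. Here the main test was edgeR 4.0.16 (R 4.3.3) with TMM, a minimum count of 10 in filterByExpr, no replicate block and Benjamini-Hochberg adjustment over all tested miRs. CPM are counts scaled to the normalized total of the tested miRs. Standard errors are those implied by the F statistic. DESeq2 1.42.0 and limma 3.58.1 were alternatives. EdgeR, DESeq2 and limma were tried on simulated counts with changes larger than those of the members, and the ratio test on random numbers. The other alternative settings were not simulated. Sequences are from RefSeq, whose table matched 2281 of 2588 names, and gene positions from GENCODE 29. Named miRs are the members, miRs with a member's seed, arms of hairpins within 100 kb and the 3 most like miR-181a-5p, miR-181a-2-3p and miR-181c-3p; the family's other arms and miR-126-3p and miR-1-3p were named besides. Members and lists were chosen with earlier results of these data known.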

Additional observations from a re-analysis of the deposited data

How the results depend on the processing

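The number of miRs called, 18, was 28 with total counts, 31 without a filter, 34 with robust edgeR and 57 with the replicate block, and ran from 0 to 36 when each library was left out. Where it was 0, without RPL24 KD replicate 1, 56 miRs had an unadjusted p under 0.05 in edgeR. Of the 6 tested members, 2 were called. This became 3 with robust edgeR (miR-181a-5p besides), remained at 2 without a filter (miR-181a-5p in place of miR-181a-2-3p), and became 1 with total counts, 0 with DESeq2 on the tested miRs, 0 with DESeq2 under default filtering, and from 0 to 2 without a library; it was 0 without RPL24 KD replicate 1 (5 members at an unadjusted p under 0.05), RPL24 KD replicate 2 (3) or NC replicate 1 (3). The replicate block, over the 4 numbered libraries, called 2 others, miR-181a-5p (adjusted p = 0.0116, edgeR) and miR-181d-5p (adjusted p = 0.0345, edgeR), and neither passenger arm (0.0844 for miR-181a-2-3p and 0.0579 for miR-181c-3p). The same 4 libraries without a block, a setting added after seeing the data, called 0 members and 27 miRs, with 4 members at an unadjusted p under 0.05. Deviations of same-numbered libraries had a correlation of -0.02 across 360 miRs, so the numbers were not taken to pair the libraries. Members had 95 values under alternatives, of which 71 left direction and call as they were, 18 lost the call, 6 gained it and 0 turned. Of 108 ratio values, 7 turned, in pairs near 0: miR-181c-5p to miR-181d-5p, from -0.68 to 0.36 without a library, and miR-181a-3p to miR-181a-5p, from -0.17 to 0.028 without a library and 0.0060 in same-numbered pairs (the replicate block). The 6 arm ratios that separated over all hairpins were from 12 to 19 without a library, since fewer libraries overlap less often. The cause of the other shifts was not tested. Depth limits miR-181c-5p and miR-181c-3p.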
